A study of Mus musculus with 2 samples.

Results

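Skin immune cells made up 104 of the 17915 cell barcodes kept from a single-cell RNA-seq study of mouse skin tumour initiation, 48 of 10993 in one genotype and 56 of 6922 in the other. A barcode counts unique molecular identifiers (UMIs), each standing for 1 captured RNA molecule. A barcode was kept when it showed 1500 genes or more and when mitochondrial genes gave no more than 10% of its UMIs. The immune barcodes were chosen by the summed UMIs of Ptprc, Laptm5, Tyrobp, Fcer1g, Cd3g and Cd3d, which had to reach 5. They were split by the larger of 2 sums, Cd207 plus Cd74 (Langerhans-like) or Cd3g plus Cd3d plus Trdc (T cell receptor genes). These 9 genes chose and split the barcodes, so their levels are a description only.

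The study asked whether Survivin, the product of Birc5 and a member of both the chromosomal passenger complex and the inhibitor of apoptosis family, affects the start of basal cell carcinoma. Each genotype was 1 library. The genotype of the SmoM2 library was Involucrin-CREER/Rosa-SmoM2. In it a recombinase under a promoter of differentiating keratinocytes switches on an active form of the hedgehog signal transducer Smoothened, fused to YFP. The Survivin GOF (gain-of-function) library carried both of these alleles and, in addition, Krt14rtTA and Survivin GOF. Krt14 is a keratin of basal keratinocytes, and its promoter drives the rtTA activator. Skin epidermis was sorted for high α6 integrin, absence of CD34 and presence of YFP, and the labels give the cell type as epithelial. Age, treatment schedule, sex and the number of mice pooled are not given in the sources used here. With 1 library per genotype there was no test and no replicate check. All intervals are exact 95% intervals that cover counting error only and leave out the spread between mice.

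The matrices held 24844 barcodes with 146216083 UMIs (SmoM2) and 11438 barcodes with 126329382 UMIs (Survivin GOF), and the labels state 8046 cells for SmoM2. Kept barcodes other than the immune ones had a median of 7709 and 12641 UMIs. The immune barcodes held 600939 and 1404820 UMIs. No immune barcode sequence was shared between the libraries, against 22 among all kept barcodes. The libraries differed in their mix of sexes. Barcodes with UMIs of Y-linked genes and none of Xist were called male here. They numbered 34 of 45 Langerhans-like barcodes in SmoM2 and 7 of 54 in Survivin GOF, while the reverse pattern was found in 1 and 35. Among the other kept barcodes 7999 and 1898 were called male, and the reverse pattern was found in 31 and 3868. Survivin GOF thus held both patterns in number, and SmoM2 nearly only the male one. Genotype, sex, depth and library preparation cannot be told apart.

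Langerhans cells are the resident antigen-presenting cells of the epidermis. They take up antigen through receptors such as langerin (Cd207), load peptides onto MHC class II molecules with the help of the invariant chain (Cd74), and hold to keratinocytes through adhesion molecules such as EpCAM. Mouse epidermis also holds T cells of the γδ lineage. Transcription of class II genes is switched on in antigen-presenting cells by the coactivator CIITA, which is recruited to a conserved promoter module containing the X and Y boxes.

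The class II genes H2-Aa and H2-Ab1, which did not choose the barcodes, were found in nearly every Langerhans-like barcode. Promoters of class II genes are shown before the values, whatever the level of each gene. Of 8 class II genes looked up, 7 were in the RefSeq promoter table for GRCm38.p6, each with 250 bases before and 50 after the gene's start. H2-Ab1 was not among them. Capitals mark the X box, searched as CT, 3 bases of any kind, AAC, another 3 of any kind and TGATG, and the Y box, searched as TGATTGG. Both strands were searched. All matches lay on the gene's own strand. The motifs were written from textbook knowledge after the promoters had been seen. The sequences run 5′ to 3′ on the strand of the gene, all on chromosome 17.
H2-Aa, minus strand, chr17:34287855-34287914: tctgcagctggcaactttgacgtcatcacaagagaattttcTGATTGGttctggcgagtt
H2-Eb1, plus strand, chr17:34305761-34305824: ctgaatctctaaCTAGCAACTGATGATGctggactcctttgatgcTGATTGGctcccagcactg
H2-DMb1, plus strand, chr17:34153082-34153146: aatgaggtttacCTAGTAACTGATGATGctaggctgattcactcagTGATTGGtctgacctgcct
H2-DMb2, plus strand, chr17:34145111-34145175: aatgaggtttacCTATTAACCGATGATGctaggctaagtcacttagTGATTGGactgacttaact
H2-Ob, plus strand, chr17:34238803-34238864: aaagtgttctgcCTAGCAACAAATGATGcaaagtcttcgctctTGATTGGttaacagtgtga
The Y box was found in 6 of the 7 promoters and the X box in 4. The promoter of H2-Oa, with a Y box 45 bases before the start and no X box, is counted but not printed. In the 4 with both, 15 to 18 bases separated the X box from the Y box. Over all 32851 promoters of the same length, the Y box was in 7.82%, the X box in 0.07% and both in 0.0274%. A match is a description of the letters and not evidence that a factor was bound.

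Of the class II genes, H2-Aa and H2-Ab1 were abundant in nearly every Langerhans-like barcode. H2-Eb1 had only 41 and 71 UMIs over all 45 and 54 barcodes. H2-Aa, the α chain of the I-A molecule, had a lowest, median and highest count of 0, 42 and 94 UMIs per barcode in SmoM2 and 5, 54 and 110 in Survivin GOF. H2-Ab1, its β chain, had 0, 44 and 130 and 9, 59 and 171 UMIs. The single SmoM2 barcode without H2-Aa also lacked H2-Ab1 and is described below with the single barcodes. Among the other kept barcodes, H2-Aa was found in 450 of 10945 and 167 of 6866, with a median of 0 in both libraries. Levels of a class are given as CPM, a gene's summed UMIs scaled to 1000000 UMIs of the class. H2-Aa stood at 3443 and 2216 CPM in Langerhans-like barcodes and at 7.20 and 3.897 CPM in the other kept barcodes.

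Langerhans-like barcodes numbered 45 of 48 immune barcodes in SmoM2 (93.8%, interval 82.8 to 98.7%) and 54 of 56 in Survivin GOF (96.4%). Of the 12 genes of the Langerhans cell list, Cd207 and Cd74 made the split and are left out of the counts. Genes entered the comparison with the other kept barcodes from 20 observed or expected UMIs. A gene rare in those barcodes thus entered only through a high count here, so this and later such counts are descriptions only. The other 10 were all at least 2-fold above the other kept barcodes in both libraries, where 5.1% of the 8963 genes measured in that comparison were that far above in both. Beside the class II genes, these 10 were Epcam, the opsonin Mfge8, the receptor Csf1r that Langerhans cells need to persist, the leukotriene synthase Ltc4s, Cd52, the endocytic receptor Ly75 and the integrin chain Itgax. Csf1r had 188 and 294 UMIs in Langerhans-like barcodes, in 41 of 45 and 52 of 54 of them. It stood at 337 and 217 CPM there and at 0.783 and 0.161 CPM in the other kept barcodes. Cd207, although part of the split, was missing from 1 of the 45 and 2 of the 54 barcodes.

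Langerhans-like barcodes did not all hold the same mixture of RNA. The summed share of 12 keratinocyte markers (Krt5, Krt14, Krt15, Krt17, Krt10, Krt1, Krt79, Col17a1, Itga6, Dsp, Perp and Sfn) was under 1% of UMIs in 9 of 45 SmoM2 barcodes (20%, interval 9.58 to 34.6%) and in 19 of 54 Survivin GOF barcodes (35.2%, interval 22.7 to 49.4%). The bound of 1% was set after the shares had been seen. Within 0.25 percentage points of it lay 6 SmoM2 barcodes and 1 Survivin GOF barcode, and in Survivin GOF no barcode lay between 0.567% and 1.24%. The remaining 36 and 35 barcodes had median shares of 2.66% and 2.96%, beside 3.88% and 4.03% in the other kept barcodes.

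**Figure D1:**
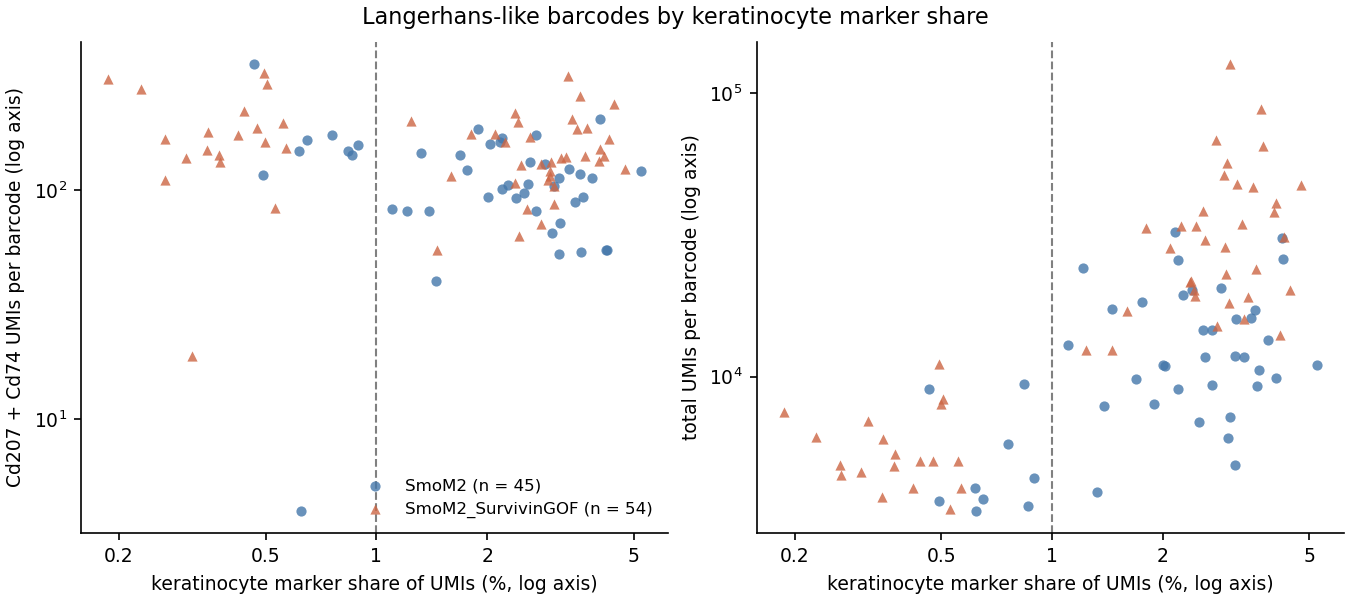
Each point is 1 Langerhans-like barcode, circles for SmoM2 (n = 45) and triangles for Survivin GOF (n = 54); the x axis is the share of its UMIs from 12 keratinocyte markers (%, log axis) and the y axes are its Cd207 plus Cd74 UMIs and its total UMIs (log axes). Barcodes left of the dashed line at 1% had few UMIs in all, while their Cd207 plus Cd74 UMIs reached as high as those to the right.

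The keratinocyte-poor barcodes were shallow and the others deep. Total UMIs per barcode had a median of 4055 (range 3373 to 9428) in SmoM2 and 5034 (range 3403 to 11122) in Survivin GOF below the bound. Above it the medians were 11808 (range 3927 to 32325) and 30240 (range 12417 to 126514). Cd207 plus Cd74 UMIs per barcode showed no such step, with medians of 149 and 167 below the bound and 105.5 and 140 above it. Krt14 had a median of 9 and 4 UMIs per barcode below the bound (highest 20 and 16), and of 120.5 and 380 above it. The keratinocyte list summed to 18.6% and 10.6% of its level in the other kept barcodes below the bound, and to 74.4% and 83.4% above it. Cd207 and Cd74 counts were thus of similar size on both sides of the bound, while keratinocyte RNA above it approached the level of the surrounding cells.

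Measures of doublets, droplets that catch more than 1 cell, were read beside this split. The doublet scores marked no barcode at their automatic threshold, so that threshold was not usable. Among the 6% highest scores of each library were 1 of the 45 and 5 of the 54 Langerhans-like barcodes, all of them above the keratinocyte bound. At least 3 UMIs each of Xist and of Y-linked genes were found together in 4 of the 35 keratinocyte-rich Survivin GOF barcodes (11.4%, interval 3.20 to 26.7%), in 0 of the 19 keratinocyte-poor ones and in 1.97% of the other kept barcodes. These shares were not thinned, and deeper barcodes reach such counts more easily (medians 30240, 5034 and 12641 UMIs). The part of doublets, attached cells or free RNA in the keratinocyte-rich barcodes was not tested further.

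The genes that lead the Langerhans-like barcodes were clearest in the keratinocyte-poor class, which held 46945 and 108600 UMIs. There H2-Aa stood at 9841 CPM in SmoM2 and 11022 CPM in Survivin GOF, H2-Ab1 at 12802 and 13324 CPM, and H2-Eb1, the β chain of I-E, at 234 and 221 CPM. Without Cd207 and Cd74, the Langerhans cell list summed to 29503 and 31685 CPM, beside 8268 and 4266 CPM in the keratinocyte-rich class and 161 and 162 CPM in the other kept barcodes. All 9 of these genes with enough UMIs to compare were at least 2-fold above the other kept barcodes in both libraries, and 21% of the 1423 genes compared in this class were. Genes rare in the other kept barcodes could be compared only through a high count in this class, so the 9 are a description only. The 12 keratinocyte markers were all at least 2-fold below in both, where 10.4% of genes were, but the bound on their summed share fixed that direction. Epcam, which keratinocytes express too, stood at 1747 and 1915 CPM in this class and at 125 and 133 CPM in the other kept barcodes.

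**Figure D2:**
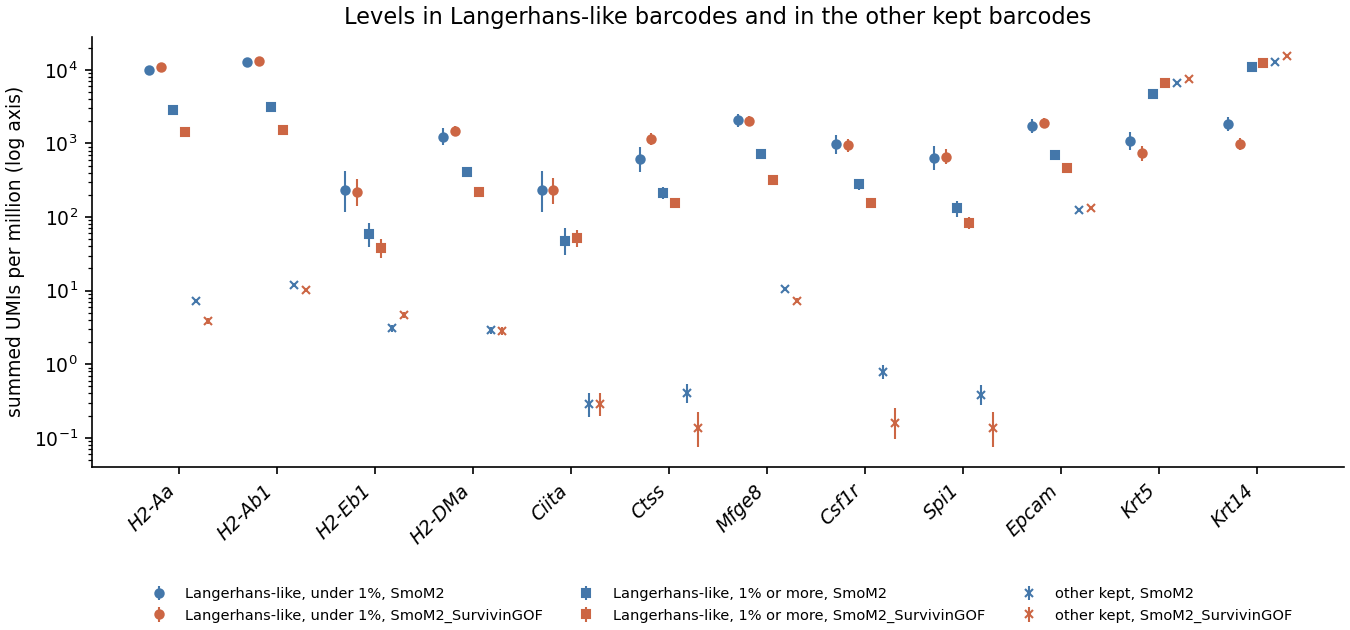
CPM (log axis) of 12 genes, each with 6 points: circles for keratinocyte-poor Langerhans-like barcodes, squares for keratinocyte-rich ones and crosses for the other kept barcodes, blue for SmoM2 and orange for Survivin GOF, with exact 95% Poisson intervals. From H2-Aa to Epcam the order is circles, squares, crosses, and for Krt5 and Krt14, markers used in the split, the keratinocyte-poor circles are lowest.

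Genes of antigen processing accompanied the class II chains. Of 15 genes listed for class II presentation, 9 of the 13 compared in all Langerhans-like barcodes were at least 2-fold above the other kept barcodes in both libraries and 4 were not, against 5.1% of all genes above. H2-DMa and H2-DMb1, the chaperone that exchanges the invariant chain peptide for antigen, stood at 1235 and 1464 CPM and at 554 and 571 CPM in the keratinocyte-poor class (SmoM2, then Survivin GOF), beside 2.91 and 2.83 CPM and 3.42 and 3.83 CPM in the other kept barcodes. Ciita, the coactivator itself, had 11 UMIs in 5 of 9 and 25 UMIs in 15 of 19 of these barcodes, or 234 and 230 CPM, beside 0.286 CPM in the other kept barcodes of each library. Ctss, the cysteine protease that degrades the invariant chain, was found in every keratinocyte-poor barcode, at 1 to 5 UMIs in SmoM2 and 1 to 40 in Survivin GOF. Cst3, a cathepsin inhibitor abundant in dendritic cells, stood at 12121 and 13214 CPM in that class and at 781 and 654 CPM elsewhere. Psap, a lysosomal activator protein, was nearer to the surrounding cells, with 788 and 516 CPM in the keratinocyte-poor class and 334 and 281 CPM in the other kept barcodes.

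Transcription factors of the lineage were found with these genes. Spi1, which encodes PU.1, a master factor of myeloid cells, was in all 9 and all 19 keratinocyte-poor barcodes (1 to 10 and 1 to 9 UMIs per barcode), at 639 and 663 CPM, beside 0.387 and 0.134 CPM in the other kept barcodes. Id2, a factor Langerhans cells require, stood at 575 and 599 CPM there and at 88.3 and 76.0 CPM elsewhere. Runx3, which acts downstream of TGF-β in these cells, had 320 and 221 CPM beside 2.58 and 2.81 CPM. Klf4, which keratinocytes express strongly, ran the other way, with 149 and 27.6 CPM in the keratinocyte-poor class and 474 and 482 CPM in the other kept barcodes. Of the 12 factors listed for the lineage, 5 of the 8 compared in all Langerhans-like barcodes were at least 2-fold above the other kept barcodes in both libraries, against 5.1% of all genes.

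Ranked by their ratio to the other kept barcodes, the 12 leading genes of the immune barcodes outside the genes of the rule were Lyz2, Ctss, Il7r, Gpr141, Lcp1, Spi1, Cd52, Csf1r, Ncf4, H2-Aa, Napsa and Cytip, where 5.1% of 9096 genes were at least 2-fold above in both libraries. Il7r, a cytokine receptor chain best known from lymphocytes, had 61 and 97 UMIs in the Langerhans-like barcodes and stood at 192 and 295 CPM in the keratinocyte-poor class, against 0.157 and 0.0447 CPM in the other kept barcodes. Gpr141, an orphan receptor, stood at 241 and 201 CPM over all immune barcodes and at 0.516 and 0.0804 CPM in the others. Ncf4, a subunit of the phagocyte NADPH oxidase, had 113 and 75.5 CPM in the immune barcodes. Lyz2 led the rank through few barcodes, since all 11 of its SmoM2 UMIs were in 1 barcode and 178 of its Survivin GOF UMIs were in another.

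Genes that mark activated, migrating dendritic cells differed among themselves. Of the 17 listed, 3 of the 8 compared in all Langerhans-like barcodes were at least 2-fold above the other kept barcodes in both libraries (5.1% of all genes were), namely Cd86, Cd40 and Nfkb2. Cd86 and Cd40 could be compared only through their UMIs in these barcodes, so the count is a description only. The list summed to 228 and 250 CPM, beside 131 and 133 CPM in the other kept barcodes. Ccr7, the receptor that guides them to lymph nodes, had 0 UMIs in the Langerhans-like barcodes of both libraries, as had the chemokine Ccl17. With 557928 and 1352499 UMIs in those classes, a count of 0 allows levels of up to 5.38 and 2.22 CPM. The costimulatory gene Cd83 had 1 and 2 UMIs and Cd80 had 0 and 2. Cd86, another costimulatory gene, had 31 and 63 UMIs and stood at 192 and 313 CPM in the keratinocyte-poor class, beside 0.175 and 0.00894 CPM in the other kept barcodes. Cd40, a receptor for T cell help, had 7 and 14 UMIs over all Langerhans-like barcodes, and Nfkb2, a transcription factor of the NF-κB family, had 15 and 41.

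Lists of other cell types differed in how far they were found in the Langerhans-like barcodes. Cd3e had 0 UMIs, and the whole 10-gene T cell list summed to 20 and 43 UMIs, or 35.8 and 31.8 CPM, beside 33.9 and 23.1 CPM in the other kept barcodes. The mast cell list summed to 2 and 0 UMIs, the neutrophil list to 2 and 1 and the endothelial list to 0 and 1. Of the fibroblast list only 2 of 6 genes had UMIs, summing to 89.6 and 135 CPM beside 511 and 663 CPM in the other kept barcodes. The NK cell or innate lymphoid list had UMIs of 2 of 7 genes, nearly all of Gata3 (54 and 187), which stood at 96.8 and 138 CPM beside 140 and 136 CPM in the other kept barcodes. The macrophage or monocyte list was found in 37 of 45 and 41 of 54 barcodes and summed to 87 and 314 UMIs, or 156 and 232 CPM beside 3.23 and 3.54 CPM. At such low levels in the other kept barcodes its genes could be compared only through their UMIs here, so the next count is a description only. Of its genes 4 were compared, and 3 were at least 2-fold above the other kept barcodes in both libraries (5.1% of all genes were). These were the complement gene C1qa (35 and 66 UMIs), the lipopolysaccharide co-receptor gene Cd14 (24 and 29) and Cd68, a lysosomal glycoprotein (14 and 18). Lyz2, the lysozyme gene of myeloid cells, had 0 UMIs in SmoM2 and 178 in Survivin GOF, all in 1 barcode. The macrophage genes Mrc1, Fcgr1, Cd163 and F13a1 had 0 UMIs. The part of these markers in the other results was not tested. Ighm, the immunoglobulin μ heavy chain, was an unexpected companion, with 46 and 56 UMIs spread over 22 and 25 barcodes, while the B cell genes Cd79b, Ms4a1, Jchain and Pax5 had 0 UMIs and Cd79a had 1 in each library. Igha, the α heavy chain, had 58 and 71 UMIs over 26 and 28 barcodes. In the keratinocyte-poor class Ighm stood at 277 and 157 CPM and Igha at 320 and 203 CPM, and in the other kept barcodes both were at or below 0.258 CPM. Of the 13 Ighm UMIs of that class in SmoM2, 6 came from 1 barcode without Cd207, described below, for which the Langerhans name does not hold. Igha was not in the B cell list.

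The sort antigens and the transgene were read in the same barcodes. Itga6, the α6 integrin used in the sort, had 103 and 271 UMIs in 32 of 45 and 37 of 54 Langerhans-like barcodes, or 185 and 200 CPM beside 222 and 221 CPM in the other kept barcodes. In the keratinocyte-poor class, whose bound counts Itga6 among its 12 markers, it had 4 and 3 UMIs. YFP transcripts were found in 2 of 45 and 4 of 54 Langerhans-like barcodes, 1 UMI each, and in 10.3% and 9.23% of the other kept barcodes. One of the 9 and 1 of the 19 keratinocyte-poor barcodes carried such a UMI. Cd34 had 0 and 1 UMIs in all Langerhans-like barcodes. Smo, whose locus product and transgene share sequence, had 0 and 1 UMIs in the keratinocyte-poor class and stood at 62.7 and 63.6 CPM over all Langerhans-like barcodes, against 83.8 and 80.5 CPM elsewhere.

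Immune barcodes were 0.437% of kept barcodes in SmoM2 (interval 0.322 to 0.579%) and 0.809% in Survivin GOF (interval 0.612 to 1.05%). Depth bears on these shares, since deeper barcodes reach 5 UMIs more easily. After each kept barcode had been thinned at random to 3000 UMIs, 12 of 10901 (0.110%) and 21 of 6911 (0.304%) met the same minimum. Both shares were lower after thinning, and Survivin GOF was the higher with and without it. Within male-called barcodes it was not the higher. There 34 Langerhans-like barcodes stood beside 7999 other kept ones in SmoM2, and 7 beside 1898 in Survivin GOF. Barcodes with Cd207 also lay outside the minimum, and more of them in SmoM2. A Cd207 UMI was found in 131 of 10945 and 26 of 6866 other kept barcodes. These held 183 and 36 Cd207 UMIs, beside 436 and 806 in the Langerhans-like barcodes. Their bearing on the shares was not tested. At 3 immune UMIs there were 6 SmoM2 and 3 Survivin GOF barcodes, and at 4 there were 5 and 0, just outside. At 5 immune UMIs there were 5 and 1, just inside.

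Birc5, the gene of the added allele, was read in both Langerhans-like classes. Over all Langerhans-like barcodes Birc5 had 28 UMIs in SmoM2 and 589 in Survivin GOF, or 50.2 and 435 CPM, 8.68-fold higher in Survivin GOF (interval 5.94 to 13.2). The other kept barcodes stood at 56.1 and 779 CPM, a 13.9-fold difference (interval 13.5 to 14.3). In the keratinocyte-rich class the lowest, median and highest counts were 0, 0 and 4 UMIs per barcode in SmoM2 and 0, 10 and 119 in Survivin GOF, or 47.0 and 466 CPM, a 9.93-fold difference (interval 6.61 to 15.6). In the keratinocyte-poor class they were 0, 0 and 4 in SmoM2 and 0, 0 and 3 in Survivin GOF. Summed, that was 4 UMIs against 9, or 85.2 and 82.9 CPM, a ratio of 0.973 (interval 0.271 to 4.32). All 4 SmoM2 UMIs of that class came from 1 barcode, while the interval counts them as independent. The interval therefore cannot decide whether the ratio differs from the 13.9-fold of the other kept barcodes.

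The share of barcodes with a Birc5 UMI was read in the same classes. In Survivin GOF it was 32 of 35 keratinocyte-rich barcodes (91.4%), 4 of 19 keratinocyte-poor barcodes (21.1%) and 80.4% of the other kept barcodes. At 3000 UMIs per barcode, which removes the difference in depth, it was 24 of 35 (68.6%), 1 of 19 and 64.4%. In SmoM2 it was 12 of 36, 1 of 9 and 25.4% before thinning, highest in the keratinocyte-rich class. At 3000 UMIs it was 2 of 36, 1 of 9 and 12.2%, and the keratinocyte-rich class was not the higher. Median depths behind these shares were 30240, 5034 and 12641 UMIs in Survivin GOF.

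**Figure D3:**
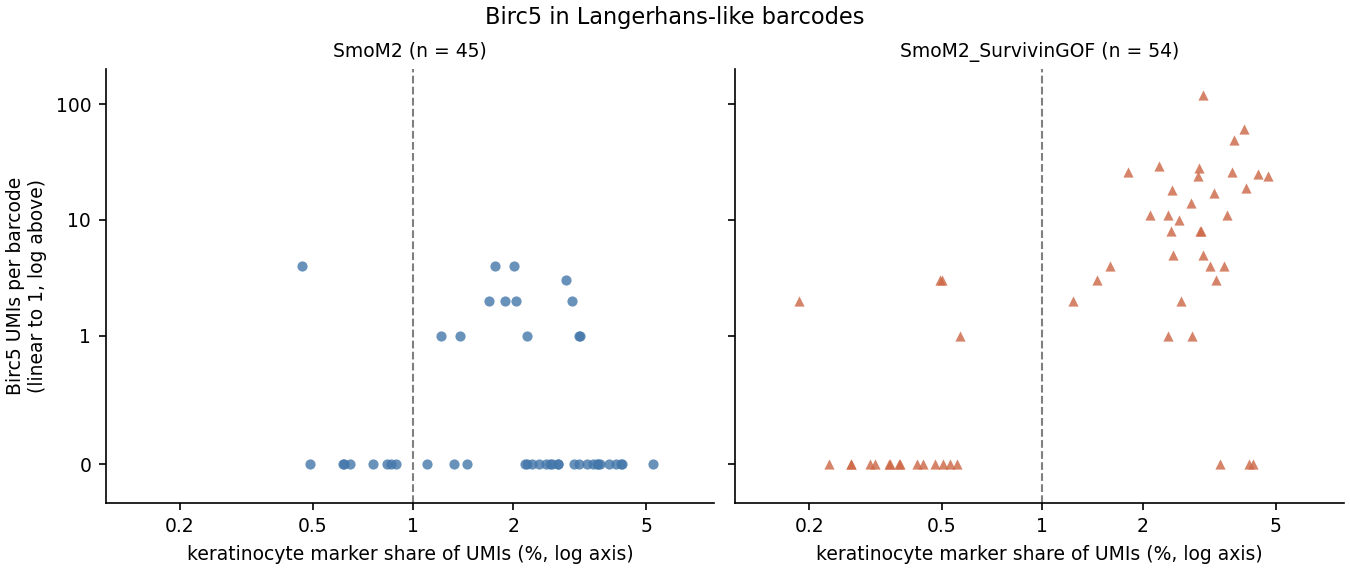
Birc5 UMIs of each Langerhans-like barcode (y axis, linear up to 1 and logarithmic above) against its share of UMIs from 12 keratinocyte markers (x axis in %, log axis), SmoM2 on the left and Survivin GOF on the right. Left of the dashed line at 1% no barcode passed 4 UMIs in either library, and to the right Survivin GOF barcodes reached 119 UMIs.

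Between the genotypes, 254 of 5270 genes with at least 50 pooled UMIs were at least 2-fold apart in Langerhans-like barcodes (4.82%), 189 higher in Survivin GOF (3.59%) and 65 lower (1.23%). In the other kept barcodes 4.75% of 14814 genes were. The split by direction moved with the scaling, since scaling by the median of ratios, which lowers each log2 ratio by 0.12, gave 115 higher and 90 lower. Of the 9 Langerhans cell genes compared besides Cd207 and Cd74, 0 were 2-fold apart, and their median log2 ratio of Survivin GOF to SmoM2 was −0.56 beside 0.12 over all 5270 genes. H2-Aa, for example, had a ratio of 0.644 (interval 0.608 to 0.682), Csf1r one of 0.645 and Mfge8 one of 0.549.

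In the keratinocyte-poor barcodes this shift was not seen. There 13 of 374 genes were at least 2-fold apart (3.48%), 10 higher (2.67%) and 3 lower (0.802%), with an overall median log2 ratio of −0.01. The 7 Langerhans cell genes compared besides Cd207 and Cd74 had a median log2 ratio of 0.13 and none was 2-fold apart. H2-Aa had a ratio of 1.12 (interval 1.01 to 1.25), H2-Ab1 one of 1.04 (0.946 to 1.15), Mfge8 one of 0.979 (0.769 to 1.26), Csf1r one of 0.959 (0.670 to 1.39) and Epcam one of 1.10 (0.845 to 1.43). In the keratinocyte-rich barcodes 276 of 4915 genes were at least 2-fold apart (5.62%), 200 higher (4.07%) and 76 lower (1.55%). There 2 of 8 Langerhans cell genes compared were 2-fold lower in Survivin GOF, H2-Ab1 with a ratio of 0.493 (interval 0.461 to 0.528) and Mfge8 with one of 0.445 (interval 0.386 to 0.514), H2-Aa had one of 0.507, and the median log2 ratio of the 8 was −0.90. The median UMIs per barcode in that class were higher in Survivin GOF (30240 against 11808). The summed UMIs of these 3 genes were not lower there. Over 36 SmoM2 and 35 Survivin GOF barcodes, H2-Ab1 had 1575 and 1892 UMIs, Mfge8 371 and 402, and H2-Aa 1459 and 1800. With 9 and 19 keratinocyte-poor barcodes from 1 library each, the intervals of that class say only that counting error does not reach a 2-fold difference for the 5 genes named.

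**Figure D4:**
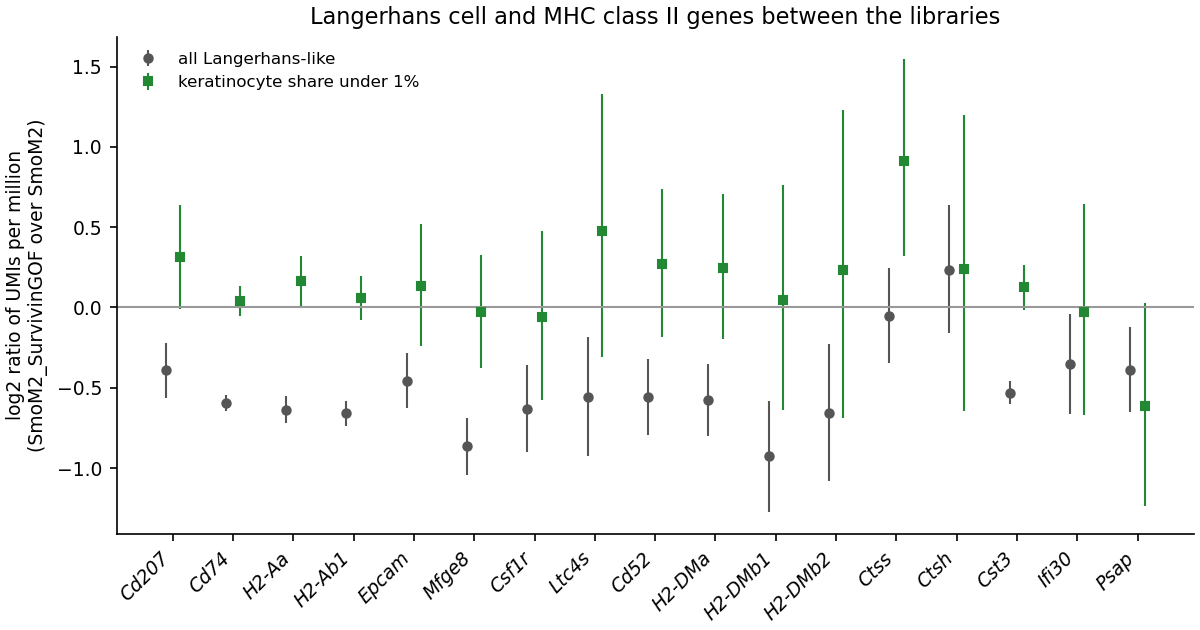
Log2 ratio of CPM, Survivin GOF over SmoM2, for 17 Langerhans cell and class II genes in all Langerhans-like barcodes (grey circles) and in keratinocyte-poor ones (green squares), with exact 95% intervals for counting error. The grey points lie mostly below 0 and the green points scatter around 0, with Ctss the highest of the green.

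Other gene groups between the genotypes were read in both ways. Of 12 class II presentation genes compared in all Langerhans-like barcodes, 1 was 2-fold lower in Survivin GOF, where 1.23% of all genes were. This was the protease gene Ctsz (124 against 55.5 CPM). In the keratinocyte-poor class none of 8 was 2-fold apart (3.48% of genes compared there were), and Ctsz stood at 234 and 276 CPM. Ctss had a ratio of 1.88 in that class (interval 1.25 to 2.92), and 40 of its 126 Survivin GOF UMIs came from 1 barcode. MHC class I presentation, which nearly all cells perform, had 0 of 10 genes 2-fold apart, where 4.82% of all genes were. Its median log2 ratio was 0.21, beside 0.12 over all genes. In the keratinocyte-poor class its leading genes had ratios above 1, H2-D1 with 1.27 (interval 1.01 to 1.61) and B2m, the light chain of class I, with 1.54 (interval 1.07 to 2.26). In the other kept barcodes H2-D1 stood at 401 and 608 CPM and B2m at 147 and 261 CPM.

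Immediate early genes, which answer to stimulation and to cell handling, had 4 of 11 members 2-fold lower in Survivin GOF over all Langerhans-like barcodes (1.23% of all genes were) and 0 higher (3.59% of all genes). These were Btg2 (305 against 140 CPM), Fos (299 against 140 CPM), Dusp1 (53 against 49 UMIs, a ratio of 0.381) and Atf3 (78.9 against 23.7 CPM). In the keratinocyte-poor class 1 of 6 was 2-fold higher (2.67% of genes compared there were) and none was lower (0.802% were). The higher gene was Jund, at 554 against 1133 CPM (ratio 2.04, interval 1.33 to 3.25). Fos had a ratio of 0.926 there (interval 0.582 to 1.51). Of the 12 genes of the list, 5 were at least 2-fold above the other kept barcodes in both libraries, against 5.1% of all genes.

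Under the rule of size, the genes furthest apart upward in all Langerhans-like barcodes were Birc5, Myadm, Timp3, Sptan1, Cxadr, Pdgfa, Ddx21, Gmps, Tmod3, Nop58, Tpm3 and Rsrc2, with log2 ratios from 3.09 to 1.05. The furthest downward were Baiap2l1, Colec12, Stfa3, H2-M2, Ctsz, Gngt2, Btg2, Acp5, Tsc22d3, Cox7b, Igha and H2-DMb1, from −1.69 to −0.93. Several of the upper genes had few UMIs in the keratinocyte-poor class, which held only 46945 and 108600 UMIs, so their levels there are uncertain. Timp3, an inhibitor of matrix metalloproteinases, stood at 48.4 and 133 CPM over all. In that class it had 2 and 1 UMIs (42.6 and 9.21 CPM). Cxadr, a junctional adhesion receptor, stood at 69.9 and 169 CPM over all, and 25% of its Survivin GOF UMIs came from 1 barcode. It had 1 and 1 UMIs in the class (21.3 and 9.21 CPM). The growth factor gene Pdgfa stood at 59.1 and 136 CPM and had 4 and 4 UMIs there (85.2 and 36.8 CPM). Others had more UMIs there in Survivin GOF. Among them were the spectrin gene Sptan1 with 3 and 17 UMIs (63.9 and 157 CPM) and the RNA helicase gene Ddx21 with 1 and 11 (21.3 and 101 CPM). Gmps, an enzyme of guanine nucleotide synthesis, had 1 and 12 (21.3 and 110 CPM). The class I-like gene H2-M2 had log2 ratios of −1.16 over all and −0.55 in the keratinocyte-poor class, where it had 22 and 35 UMIs. Baiap2l1, an actin regulator, and Acp5, an acid phosphatase, had 0 UMIs in that class in both libraries.

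Within the keratinocyte-poor class, Ctnna1, which encodes α-catenin of adherens junctions, had 6 UMIs in 4 of 9 SmoM2 barcodes and 53 UMIs in 16 of 19 Survivin GOF barcodes, or 128 and 488 CPM (ratio 3.82, interval 1.64 to 10.9). Eif4g2, a translation initiation factor, had 6 UMIs in 4 barcodes and 44 in 17, a ratio of 3.17. Arhgdib, a gene abundant in leukocytes, had a ratio of 2.05 (interval 1.24 to 3.56). Lower in Survivin GOF were Krt14, with a ratio of 0.538 (interval 0.401 to 0.723), and Lgals7, a galectin of keratinocytes. Krt14 is among the markers whose summed share set the bound, so its ratio is a description only. That share had a median of 0.648% in SmoM2 and 0.375% in Survivin GOF in this class. The genes of this class were named after their values had been seen, since the rule asked for 20 barcodes per library and SmoM2 had 9.

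Dividing Langerhans-like barcodes were found at low keratinocyte content. One keratinocyte-poor SmoM2 barcode had UMIs of all 12 core mitotic genes, 64 in total, together with 332 Cd74, 24 Cd207 and 12 Krt14 UMIs. Its 4 Birc5 UMIs were all that the class held in SmoM2. In Survivin GOF 1 such barcode had 59 mitotic UMIs, again of all 12 genes, with 253 Cd74, 52 Cd207, 5 Krt14 and 2 Birc5 UMIs, and another had 31 mitotic UMIs of 7 genes with 3 Birc5 UMIs. At 3000 UMIs per barcode, at least 3 mitotic UMIs were found in 1 of 9 and 3 of 19 keratinocyte-poor barcodes, in 10 of 36 and 7 of 35 keratinocyte-rich barcodes, and in 27.2% and 16.0% of the other kept barcodes. No mitotic gene of the 10 compared was 2-fold apart between the genotypes in Langerhans-like barcodes, where 4.82% of all genes were.

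The remaining immune barcodes were too few for a class and are described singly. The T cell receptor genes prevailed in 1 SmoM2 and 2 Survivin GOF barcodes, and all 3 carried far more keratinocyte than T cell RNA, so that no T cell name is given to them. The SmoM2 barcode (26085 UMIs) had 6 Cd3g, 5 Ltb, 3 Trbc2 and 1 Cd3e UMIs beside 606 keratinocyte marker UMIs. One Survivin GOF barcode (18236 UMIs) had 4 Trdc, 4 Cd3g and 4 Cd247 UMIs, where Trdc is the constant chain of the γδ receptor, beside 737 keratinocyte marker UMIs. The other (34085 UMIs) had 30 UMIs of the chemokine gene Ccl5, 3 of Cd3d, 5 of Trbc2, 2 of Trac and 1 of Cd8a beside 1619 keratinocyte marker UMIs. These 2 barcodes had 6 Birc5 UMIs each and the SmoM2 barcode had 0.

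The Langerhans-like barcodes without Cd207 each had a content of their own. The SmoM2 barcode (3373 UMIs) had UMIs of only 2 of the 12 Langerhans cell markers, so that the name does not hold for it. It had 4 Cd74 UMIs and was led by 21 Irf8 UMIs, with 11 of Plac8, 7 of Ly6c2, 6 of Siglech and 6 of Ighm. It held 21 of the 27 Irf8 UMIs of the keratinocyte-poor SmoM2 class, and Irf8 is a factor of several dendritic cell and monocyte lineages. One Survivin GOF barcode (6967 UMIs) had 178 Lyz2, 40 Ctss, 30 Fn1 and 6 C1qb UMIs, and 6 macrophage or monocyte markers summed to 194 UMIs. The other (18184 UMIs) had 209 UMIs of Cxcl10 and 165 of Cxcl9, chemokines induced by interferon-γ, with 50 of Gbp2, 28 of Ccl4, 11 of Gzmb and 87 of Cd74, beside 551 keratinocyte marker UMIs. It also had 19 Ccl5, 6 Nkg7, 3 Trbc2, 2 Cd3g and 1 Cd8a UMIs, and UMIs of 6 of the 10 T cell list genes. That barcode held 209 of the 218 Cxcl10 UMIs and 50 of the 53 Gbp2 UMIs of Survivin GOF Langerhans-like barcodes. It so supplied the 2 genes of 3 compared from the interferon response list that were 2-fold higher (3.59% of all genes were). Neither of these 2 Survivin GOF barcodes had an Epcam UMI, and for both Langerhans-like is the class of the split only. Left without a class were 2 SmoM2 barcodes. The first (6242 UMIs) had 261 Fth1, 69 Apoe, 50 Hmox1, 18 Pf4 and 11 Lyz2 UMIs. The second (10684 UMIs) had 16 Alcam, 15 Vim, 11 Lhx2 and 6 Lgr5 UMIs and only 3 of Ptprc.

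**Figure D5:**
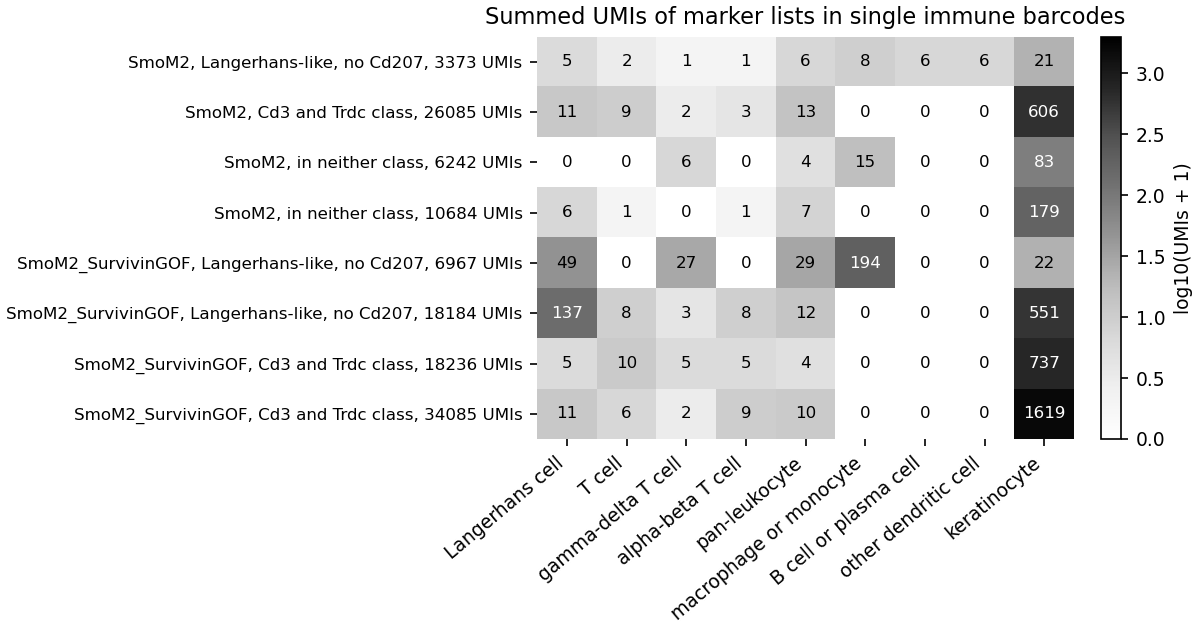
Summed UMIs of 9 marker lists (columns) in the 8 immune barcodes that were not Langerhans-like with Cd207 (named by library, class and total UMIs); numbers are UMIs and shading is log10 of UMIs plus 1. The keratinocyte column runs from 21 to 1619 UMIs, and the macrophage or monocyte column is highest, at 194 UMIs, in a Survivin GOF barcode.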

How the data were processed

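Single-cell RNA was measured on the 10x Chromium 3′ system in 2 libraries, 1 per genotype, with 10000 cells loaded per channel per the labels. The deposited values are UMI counts per gene and barcode, whole and not normalized, and per the file headers the authors made them with Cell Ranger 6.1.1. Further names in the submitters' processing notes are mm10, Seurat 4.2.0 and R 4.3.0. Some barcodes may hold free RNA or more than 1 cell, and such RNA adds to every level given.

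Counts were read with Python 3.11.15 (numpy 2.4.6, scipy 1.17.1, pandas 2.3.3, matplotlib 3.10.9), summed per library and class, and scaled to CPM of the class. Shares have Clopper-Pearson, CPM values Poisson and ratios conditional binomial 95% intervals, which cover counting error only. The limit for a count of 0 is 3 counts. Log2 ratios carry 0.5 added UMIs, except those of single genes under the alternatives, and a gene with 0 UMIs in either library was not counted as above in both. Genotype ratios were compared from 50 pooled UMIs, and ratios to the other kept barcodes from 20 observed or expected UMIs. A gene counts as called past 2-fold. Shares across depths were compared after thinning to 3000 UMIs. Doublets were scored with scrublet in scanpy 1.11.5 at an expected rate of 6% and kept, with the top 6% (699 and 428 barcodes) removed as an alternative. The ratio script was tested on simulated data.

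Genes were named as the 12 largest genotype ratios in each direction reaching 100 CPM in the higher library, with an interval leaving out 1 and at most 25% of UMIs from 1 barcode; the 12 largest ratios of immune to other barcodes; the 4 most abundant members of each of the lists described; and Birc5, Krt14, YFP and Smo. Left out were unnamed gene models and mitochondrial, ribosomal protein and sex-linked genes. Other genes, such as those behind a count of 5 or fewer and those of single barcodes, were named after their values had been seen. The immune barcodes, the 36 gene lists and the rules were chosen with earlier results of these data known. The planned comparisons with a T-cell-like class were not made, since it held 1 and 2 barcodes. Promoters are RefSeq's.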

Additional observations from a re-analysis of the deposited data

Results flagged for a closer look

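Among SmoM2 barcodes left out by the filters on genes and mitochondrial UMIs, 19 reached the minimum of 5 immune UMIs, above the limit of 3 that a count of 0 allows, and in Survivin GOF 1 did. Of the 19, 14 failed the minimum of 1500 genes alone and 5 the mitochondrial maximum alone. By the same split 13 of them were Langerhans-like, and 5 of the 13 had a keratinocyte share under 1%. They entered no comparison.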

How the results depend on the processing

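Of the values that answer a comparison, 73 kept their side of the 2-fold bound or their size under an alternative, 20 moved and 1 reversed. Of those for single genes and lists, 403 kept it, 90 moved and 8 reversed. Restricting to keratinocyte shares under 1%, removing the barcodes without Cd207 and removing the deepest barcode were added after the data had been seen. The Birc5 ratio of 8.68 was 4.90 as a mean of per-barcode shares and 0.973 under 1% keratinocyte share. The 254 genes past 2-fold were 740 from 20 pooled UMIs, 142 without the top 6% of doublet scores, 100 in male-called barcodes and 13 under 1% keratinocyte share, and male-called barcodes gave 36 higher and 64 lower. The Langerhans-like share was 100% under 1% keratinocyte share in both libraries, and in Survivin GOF 100% in male-called barcodes, without barcodes above the median keratinocyte share or from 10 immune UMIs. The keratinocyte-poor share was 7.89% (SmoM2) and 22.2% (Survivin GOF) from 2000 genes, and 5.88% in male-called SmoM2 barcodes. The immune share was 0.583% with at most 5% mitochondrial UMIs and 0.264% from 10 immune UMIs (SmoM2), 0.110% and 0.304% after thinning, 0.0822% and 0.276% under 1% keratinocyte share, and 0.367% in male-called Survivin GOF barcodes. Under 1% keratinocyte share the log2 ratio, here without added UMIs, turned to −0.040 for Birc5, 1.96 for Colec12 (1 and 9 UMIs), 0.24 for Ctsz and −1.21 for Pdgfa. In male-called barcodes it turned to −0.052 for Cxadr, −0.34 for Timp3 and −1.06 for Tmod3, and from 10 immune UMIs to −0.038 for the interferon list median. Apart from the direct effect of fewer barcodes or UMIs, the cause was not tested. No paired analysis was possible because each genotype was 1 library with no replicate number. No ratio was given where a library had 0 UMIs or both had 3 or fewer, as for Stfa3, Cxadr and Timp3 under 1%. Depth limits the keratinocyte-poor class, where 374 genes could be compared.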

Other observations

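Genes through which the epidermis keeps its resident leukocytes were read in the Langerhans-like barcodes as well. Cxcl16, a chemokine made as a membrane-bound protein by antigen-presenting cells, had 12 and 39 UMIs in the keratinocyte-poor class, or 256 and 359 CPM, beside 18.8 and 15.7 CPM in the other kept barcodes. Cdh1, E-cadherin, by which Langerhans cells hold to keratinocytes, had 107 and 212 CPM there beside 129 and 134 CPM. The Cxcl14 level, in contrast, was 42.6 and 18.4 CPM in that class and 228 CPM in the other kept barcodes of each library. Il34, the keratinocyte ligand of Csf1r, had 0 UMIs in the keratinocyte-poor barcodes of both libraries. Among receptors, Havcr2, an inhibitory receptor, had 15 and 37 UMIs in the Langerhans-like barcodes, and Cd244a, a receptor of the SLAM family, had 25 and 38 UMIs.

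Hedgehog target transcripts were present at low counts. Ptch1, the hedgehog receptor and a target of the pathway, had 6 and 12 UMIs in the keratinocyte-poor class, each in 4 barcodes, or 128 and 110 CPM, beside 192 and 149 CPM in the other kept barcodes. Of the 8 genes of the hedgehog list, 2 were compared between the genotypes over all Langerhans-like barcodes. None was 2-fold apart, where 4.82% of all genes were. Hhip had 9 UMIs in the keratinocyte-poor SmoM2 class, all from 1 barcode.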
